A study of Homo sapiens with 25 samples.

Results

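Candidate 42 is a long noncoding RNA (lncRNA) of chromosome band 8p21, annotated as AC107959.3 (ENSG00000253616.5, now also named CHILL1), that lies beside the genes of the TRAIL receptors. The lncRNA and 8 protein-coding genes around it were taken by name from the deposited table of transcript abundance, and all 9 were found among its 59427 gene names. The receptor genes were TNFRSF10A, TNFRSF10B, TNFRSF10C and TNFRSF10D, and the other neighbours were RHOBTB2, CHMP7, R3HCC1 and LOXL2. The question was whether the level of any neighbour moved when the lncRNA was targeted, as it would in a cis effect.

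RNA was sequenced from 2 human lung cancer lines, A549 (an adenocarcinoma) and NCI-H460 (a large cell carcinoma). Each library came from cells given 1 antisense oligonucleotide (ASO, a short single strand that pairs with an RNA and can direct its cleavage) at 25 nM for 24 h. The 5 groups of a line were a neutral control ASO, candidate 42 ASO3, candidate 42 ASO5, and ASO1 and ASO3 against candidate 240, another lncRNA whose ASOs serve here as a second reference. Each A549 group held 3 libraries, numbered 3, 4 and 5, and each NCI-H460 group 2, numbered 1 and 2. All groups share ASO delivery, so no untreated cells enter any comparison. The labels do not state whether replicates were separate cultures, and p-values therefore measure only the spread between these libraries.

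TRAIL, encoded by TNFSF10, is a ligand of the tumour necrosis factor family that can trigger programmed death of tumour cells. It binds the death receptors DR4 (TNFRSF10A) and DR5 (TNFRSF10B), whose death domains recruit the adaptor FADD and the initiator caspase CASP8. It also binds the decoys DcR1 (TNFRSF10C), which has no intracellular domain, and DcR2 (TNFRSF10D), whose death domain is truncated. A lncRNA can act in cis on genes near its own site of transcription, or in trans on genes elsewhere.

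In the hg38 build AC107959.3 covers chromosome 8 from 23071377 to 23074488 on the minus strand, a span of 3112 bp. It has 2 annotated transcripts of 484 and 450 bases, which share a first exon of 53 bases and differ in their second exon (431 and 397 bases). Its 3′ end lies 2345 bp upstream of the start of TNFRSF10B (23020133 to 23069031, minus strand), so the lncRNA and DR5 are transcribed in the same direction. RHOBTB2 (22987417 to 23020199) lies past TNFRSF10B on the plus strand. On the other side follow TNFRSF10C (23102921 to 23117445, plus), TNFRSF10D (23135588 to 23164027, minus), TNFRSF10A (23190452 to 23225102, minus), CHMP7 (23243637 to 23262000, plus), R3HCC1 (23270120 to 23296279, plus) and LOXL2 (23296897 to 23425328, minus).

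The annotation also places AC107959.3 within the span of AC107959.2, a gene on the opposite strand (23068229 to 23083619). The pair share 0 exonic bases, and AC107959.2 averaged at most 0.0866 TPM in any A549 group. No 31-base word of the AC107959.3 transcripts occurred in another gene's transcripts. Shared words made up 17.2% of TNFRSF10A, 26.6% of RHOBTB2 and 38.3% of TNFRSF10C, the last shared with AC107959.4, AC107959.5 and TNFRSF10D. The sources used here do not say how counting treated strand, and the values of these 3 genes are uncertain to that extent.

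Abundance is given in TPM as the authors rescaled it, a level per transcript length that can be compared between genes. The lines may have been scaled apart, so levels were not tested between lines. Fold changes are on the scale of log2(TPM + 0.5), from limma fitted to all 5 groups of a line, and a gene was called when its p, adjusted by Benjamini and Hochberg over all genes averaging 1 TPM or more, was under 0.05. The deposited columns summed to 924350 to 1179224 and listed 23879 to 27731 names above 0. Read depth is not known from them. Epithelial markers were present (5 of 5 at 1 TPM or more in A549, 3 of 5 in NCI-H460), with summed levels of 4892 to 7895 TPM and 2645 to 4229 TPM. Of 4 markers each of leukocytes and fibroblasts 1 reached 1 TPM in either line (CD14 and COL1A1). None of 3 endothelial markers did, nor did any of 4 alveolar markers in NCI-H460. In each A549 group the replicate 3 library lay lowest on the first principal component, and the one with candidate 240 ASO3 stood apart from all others at -71.9. A549 results are also given without replicate 3 where they differ. The NCI-H460 candidate 42 ASO3 libraries stood apart from the other 8 of that line, at 72.2 and 38.7 against -28.5 to 3.1.

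The lncRNA itself was a low-abundance transcript in both lines. In the A549 controls AC107959.3 stood at 7.13, 5.12 and 10.6 TPM, and with candidate 42 ASO3 at 1.13, 0 and 0.824 TPM. With ASO5 it stood at 4.81, 2.80 and 2.66 TPM. The ASO3 libraries lay below every control, as did those with ASO5, whose highest value was just under the lowest control. AC107959.3 fell by 2.93 with ASO3 on the log2 scale (SE 0.375, adjusted p = 0.000211, limma), and only 0.01357% of the genes tested had a lower value. The change of -1.03 with ASO5 was not called (95% interval -1.84 to -0.23, adjusted p = 0.166), and it stayed uncalled at -1.29 in replicates 4 and 5 alone (adjusted p = 0.0963). In bulk RNA, fewer cells that express a gene and less of its RNA per cell cannot be told apart.

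In the NCI-H460 controls the lncRNA stood at 1.16 and 2.33 TPM, though levels were not tested between the lines. AC107959.3 stood at 0.516 and 0.541 TPM with ASO3, below both controls, and at 1.88 and 1.46 TPM with ASO5, between them. The change with ASO3 was called (-1.08, SE 0.343, adjusted p = 0.0302), but without control replicate 2 it was -0.69 (adjusted p = 0.204), and without ASO3 replicate 1 or 2 it was -1.06 (adjusted p = 0.102) or -1.09 (adjusted p = 0.0652). With ASO5 the change was -0.01 with an interval of -0.78 to 0.77, which does not reach the value with ASO3.

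With the candidate 240 ASOs, which target another RNA, the lncRNA lay above every control in 3 of the 4 groups. In A549, AC107959.3 stood at 5.69, 7.38 and 5.35 TPM with candidate 240 ASO1 and at 12.7, 15.4 and 15.1 TPM with candidate 240 ASO3. The second group lay above every control, yet the difference of 0.93 was not called (adjusted p = 0.123). In NCI-H460 it stood at 5.92 and 2.89 TPM with candidate 240 ASO1, above both controls (1.11, not called, adjusted p = 0.927). With candidate 240 ASO3 it stood at 5.34 and 6.54 TPM and rose by 1.57 (SE 0.343, adjusted p = 0.0346), a call lost when any 1 of the 4 libraries compared was left out.

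In A549 the mean level of the lncRNA was highest with candidate 240 ASO3 (14.4 ± 1.49 TPM, SD, n = 3), followed by the control (7.61 ± 2.76), candidate 240 ASO1 (6.14 ± 1.09), candidate 42 ASO5 (3.42 ± 1.21) and candidate 42 ASO3 (0.650 ± 0.583). Of neighbours in that order, limma called a difference between candidate 42 ASO5 and ASO3 alone. In NCI-H460 the order was candidate 240 ASO3 (5.94 ± 0.846 TPM, n = 2), candidate 240 ASO1 (4.4 ± 2.14), control (1.75 ± 0.825), candidate 42 ASO5 (1.67 ± 0.30) and candidate 42 ASO3 (0.529 ± 0.0176). There too the step between ASO5 and ASO3 was called (adjusted p = 0.0405), though 9 of 11 alternative settings did not call it. The step between the candidate 240 ASOs in NCI-H460 was not tested, and their libraries overlapped.

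**Figure D1:**
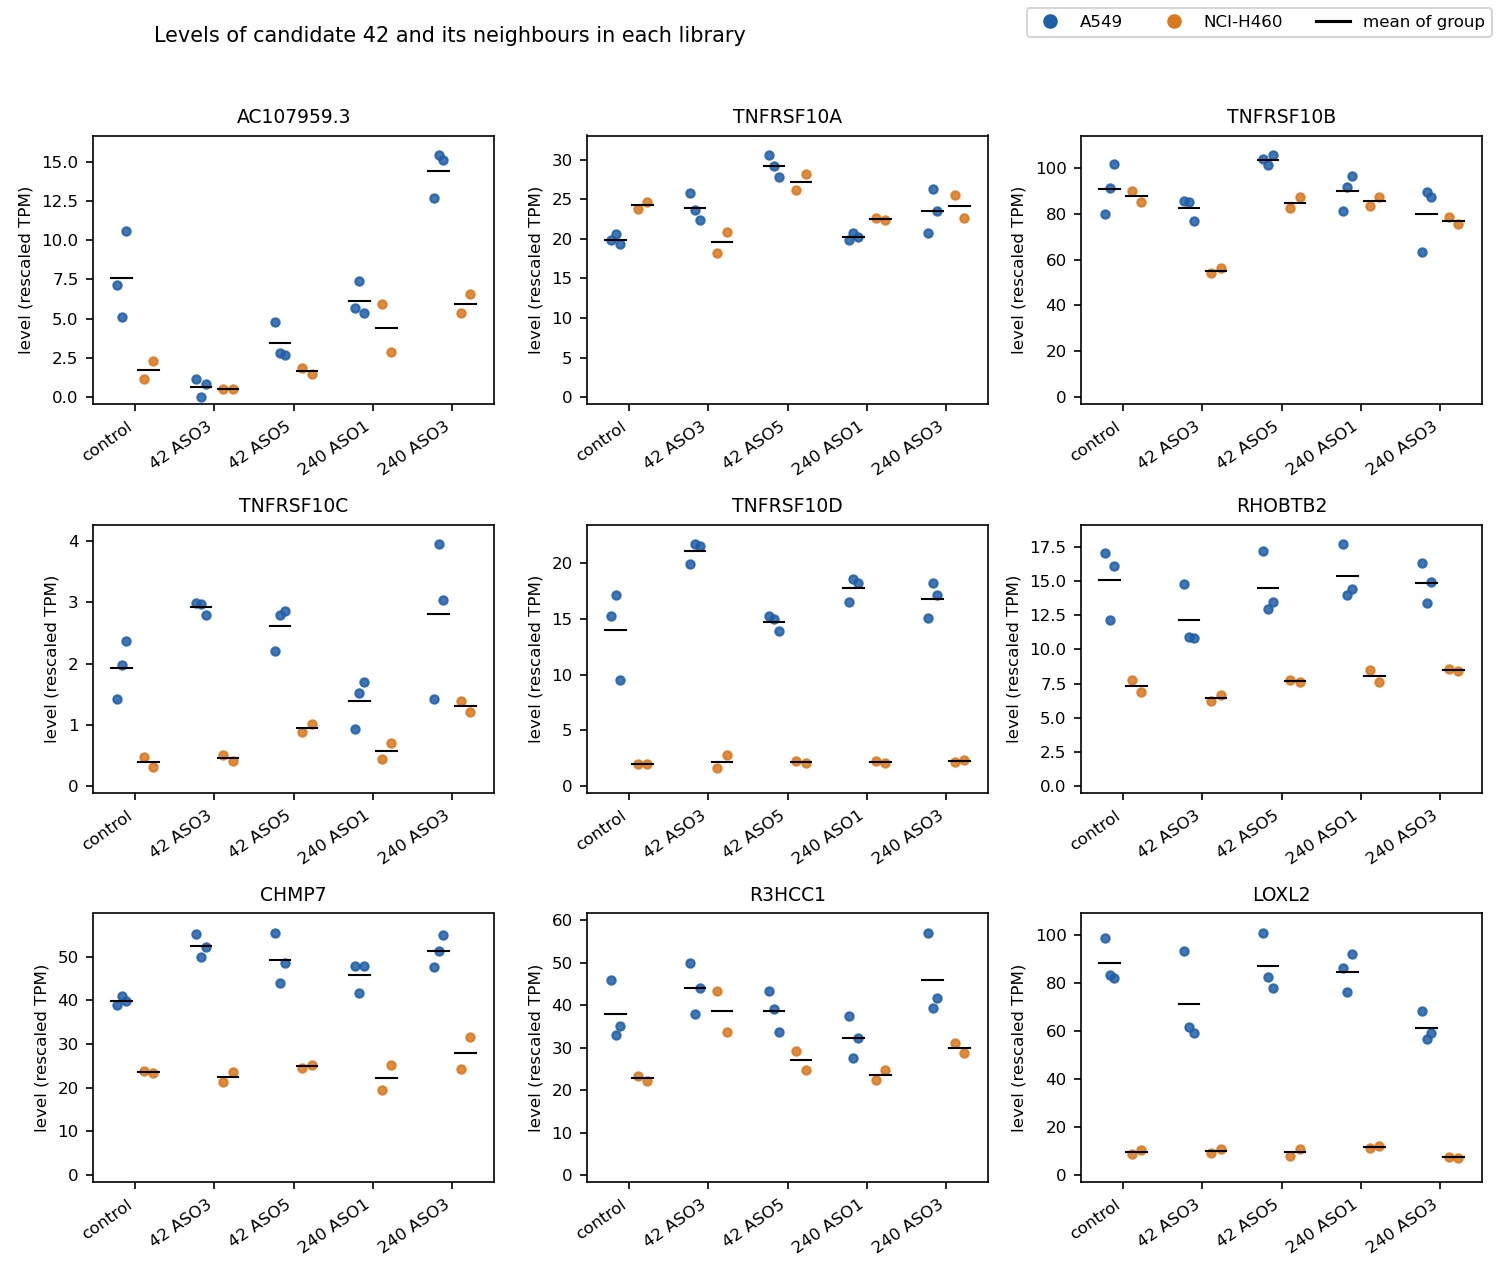
Abundance (TPM, per panel) of the lncRNA and its 8 neighbours in each library, by line and ASO group; each point is 1 library and each bar a group mean. AC107959.3 is lowest with candidate 42 ASO3 in both lines (0 to 1.13 TPM in A549, 0.516 and 0.541 TPM in NCI-H460), and TNFRSF10B is at 54.2 and 56.2 TPM with that ASO in NCI-H460, below all other libraries.

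Of the 9 genes, limma called 3 in A549 with candidate 42 ASO3 (AC107959.3 lower, TNFRSF10D and CHMP7 higher), where 10.1% of all genes tested were called (3.43% higher and 6.63% lower). With ASO5 it called 1 (TNFRSF10A, higher), where 3.82% of all genes were called. In NCI-H460 it called 4 of 8 tested members with ASO3 (AC107959.3, TNFRSF10A and TNFRSF10B lower, R3HCC1 higher), where 46% of all genes were called (13.2% higher and 32.8% lower), so the members' share was near that of the whole table. With ASO5 in NCI-H460 limma called 0 of 8, where 0.508% of all genes were called. None of the 8 had an unadjusted p under 0.05 either, while 2093 of all 13774 genes did. The authors' deposited table had 0 of 9 at a q-value under 0.05. No neighbour was called in the same direction with both candidate 42 ASOs in either line, or with the same ASO in both lines. The median change of the neighbours was 0.236 with ASO3 and 0.151 with ASO5 in A549, against 0.019 and 0.017 over all genes. It was as high with candidate 240 ASO3, an ASO against another RNA (0.249 against -0.008). In NCI-H460 it was -0.065 and 0.078, against -0.201 and 0.009 over all genes. All comparisons with the control in a line use the same control libraries.

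**Figure D2:**
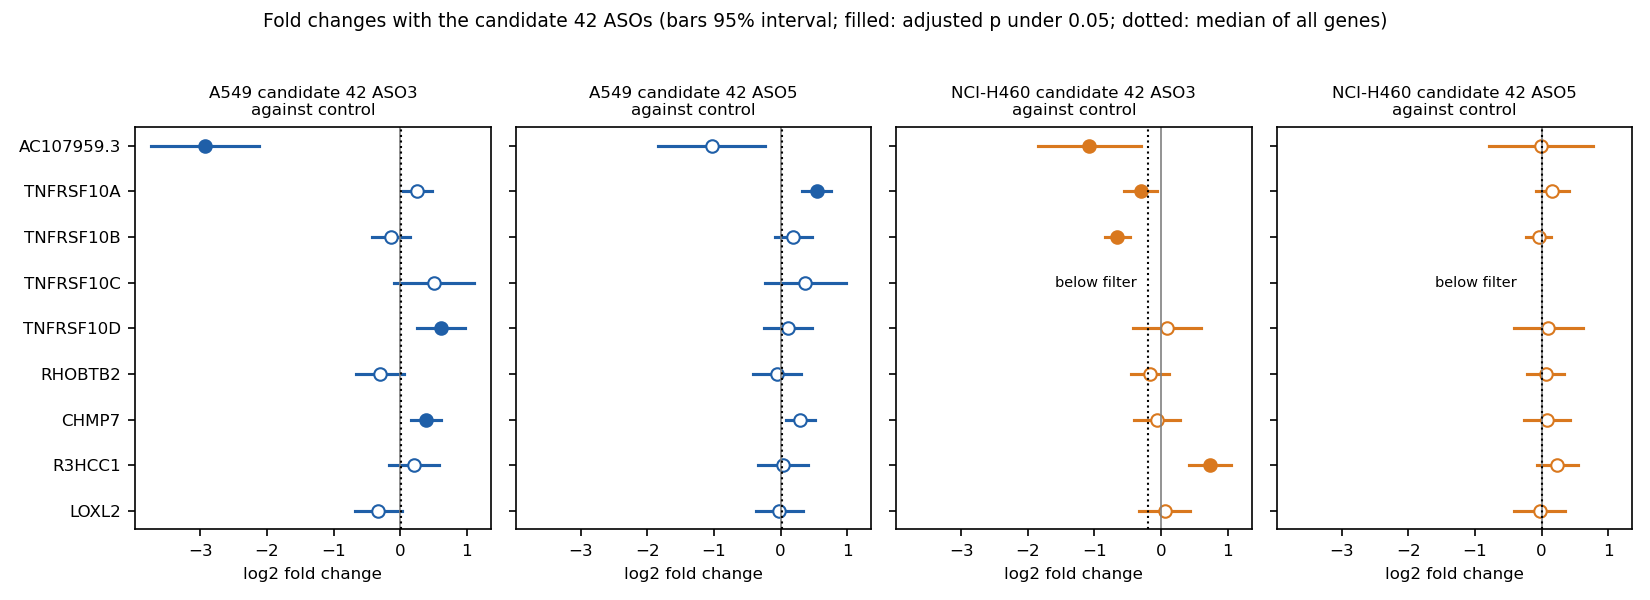
Log2 fold change of each of the 9 genes against the control, on the log2(TPM + 0.5) scale, for candidate 42 ASO3 and ASO5 in both lines; points are limma estimates, bars are 95% intervals, filled points are called and dotted lines are the medians of all genes. AC107959.3 lies farthest from 0 at -2.93 in A549 with ASO3, and the neighbours lie between -0.66 and 0.74 in all 4 comparisons.

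TNFRSF10B, the gene of the death receptor DR5 and the nearest downstream neighbour, was the most abundant TRAIL receptor in both lines. In NCI-H460 it stood at 90.002 and 84.996 TPM in the controls and at 54.2 and 56.2 TPM with candidate 42 ASO3, well apart. With ASO5 it stood at 82.5 and 87.1 TPM, overlapping the controls. TNFRSF10B fell by 0.66 with ASO3 (SE 0.083, adjusted p = 0.000579), to 63.1% of the control mean, and kept its call in 11 of 11 alternative settings (-0.81 to -0.43). Against the median change of -0.201 over all genes of that comparison, its change was -0.459, and 25.45% of the genes tested were lower still. With ASO5 the change was -0.04 (95% interval -0.23 to 0.14, adjusted p = 0.849).

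The same gene moved less in A549, where the lncRNA fell more on the log2 scale, from control levels further above the pseudocount of 0.5 TPM. TNFRSF10B stood at 80.1, 91.3 and 102 TPM in the A549 controls, at 85.3, 85.2 and 76.8 TPM with ASO3 and at 104, 101 and 106 TPM with ASO5, and both groups overlapped the controls. The change with ASO3 was -0.14 (95% interval -0.42 to 0.15, adjusted p = 0.587), an interval that ends short of the change in NCI-H460. In replicates 4 and 5 alone it was -0.25 and passed the threshold narrowly (adjusted p = 0.0494). With ASO5 it was 0.19 (95% interval -0.09 to 0.47, adjusted p = 0.530). With candidate 240 ASO3 TNFRSF10B stood at 63.2, 89.3 and 87.3 TPM in A549 and at 78.4 and 75.6 TPM in NCI-H460, below both controls of the latter line, with no call in either (-0.20, adjusted p = 0.386, and -0.18, adjusted p = 0.220).

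**Figure D3:**
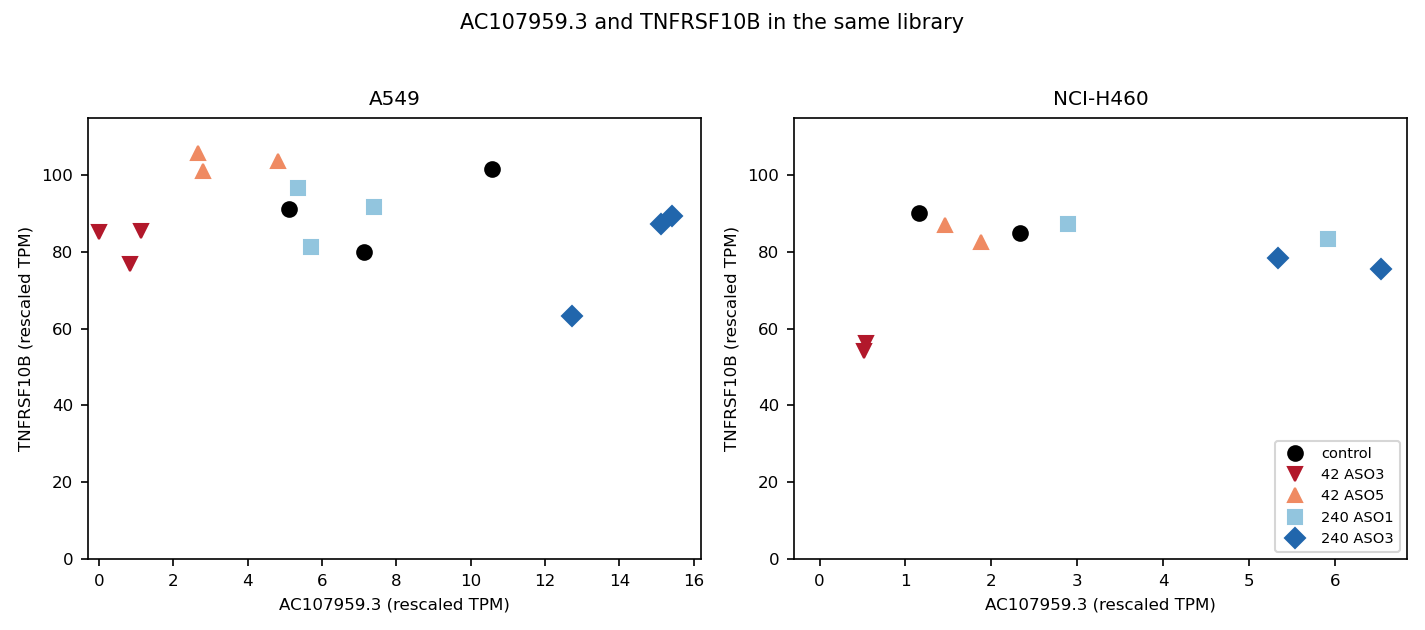
AC107959.3 (horizontal axis, TPM) against TNFRSF10B (vertical axis, TPM) in each of the 15 A549 and 10 NCI-H460 libraries, coloured by ASO group. The A549 libraries with 0 to 1.13 TPM of the lncRNA held 76.8 to 85.3 TPM of TNFRSF10B. In NCI-H460, the libraries with 0.516 and 0.541 TPM held 54.2 and 56.2 TPM. The lines may have been scaled apart, so levels are to be read within a line.

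TNFRSF10A, the gene of the death receptor DR4, stood higher than the controls with both ASOs in A549 and lower with ASO3 in NCI-H460. In the A549 controls it stood at 19.8, 20.6 and 19.3 TPM, with candidate 42 ASO3 at 25.7, 23.7 and 22.4 TPM and with ASO5 at 30.6, 29.2 and 27.8 TPM. Both ASO groups lay above every control, and those with ASO5 above every ASO3 library. TNFRSF10A rose by 0.54 with ASO5 (SE 0.10, adjusted p = 0.00857), to 147% of control, and the value was 0.51 to 0.58 when any library was left out, each time called. It was no longer called with columns scaled to one total (adjusted p = 0.0558) or with only the 2 groups in the fit (adjusted p = 0.0703). The change of 0.26 with ASO3, the oligonucleotide that lowered the lncRNA more, was not called (adjusted p = 0.127). With candidate 240 ASO3 TNFRSF10A stood at 20.7, 26.3 and 23.6 TPM, also above the controls and not called (0.23, adjusted p = 0.155).

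In NCI-H460 TNFRSF10A stood at 23.8 and 24.7 TPM in the controls, 18.2 and 20.9 TPM with ASO3 and 26.2 and 28.2 TPM with ASO5. It fell by 0.31 with ASO3 (95% interval -0.55 to -0.06, adjusted p = 0.0425), close to the median of all genes of -0.201. Scaled by median-of-ratios, which brings that median to 0.008, the TNFRSF10A change was -0.09 (adjusted p = 0.504), and 7 of 11 alternatives did not call it, among them those without control replicate 1 (adjusted p = 0.112), control replicate 2 (adjusted p = 0.178) or ASO3 replicate 1 (-0.21, adjusted p = 0.175). With ASO5 the change was 0.16 (adjusted p = 0.508).

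The decoy TNFRSF10D (DcR2) was somewhat less abundant than DR4 in A549 and near 2 TPM in NCI-H460. The A549 values were 15.2, 17.1 and 9.55 TPM in the controls, 19.9, 21.7 and 21.5 TPM with ASO3 and 15.3, 14.97 and 13.9 TPM with ASO5. The ASO3 libraries lay above every control, and control replicate 5 lay well below the other controls. TNFRSF10D rose by 0.61 with ASO3 (95% interval 0.26 to 0.97, adjusted p = 0.0315). Without control replicate 5 the value was 0.37 and not called (adjusted p = 0.0785), nor was it called without ASO3 replicate 3, 4 or 5 (adjusted p = 0.0565, 0.0967 and 0.103). The means with candidate 240 ASO1 and ASO3 were 127% and 120% of control, not called, and against candidate 240 ASO1 the ASO3 difference of TNFRSF10D was 0.24 (adjusted p = 0.458). With ASO5 the change was 0.11 (adjusted p = 0.833), and in NCI-H460 with ASO3 it was 0.09 (adjusted p = 0.753).

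The decoy TNFRSF10C (DcR1) was the rarest receptor, at 1.43, 1.99 and 2.37 TPM in the A549 controls. With ASO3 it stood at 2.99, 2.98 and 2.80 TPM, above every control, and with ASO5 at 2.21, 2.79 and 2.85 TPM. Neither difference was called (0.51, adjusted p = 0.298, and 0.37, adjusted p = 0.584). In NCI-H460 TNFRSF10C stood at 0.306 to 1.39 TPM over all 10 libraries and did not reach the filter of 1 TPM. Tested without the filter it gave 0.11 with ASO3 (adjusted p = 0.923) and 0.70 with ASO5 (adjusted p = 0.434).

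RHOBTB2 encodes a protein that serves as an adaptor of CUL3 ubiquitin ligases. In A549 it stood at 17.1, 12.2 and 16.1 TPM in the controls and at 14.8, 10.9 and 10.8 TPM with ASO3, overlapping groups whose difference of -0.30 was not called (adjusted p = 0.306). Each ASO3 library lay below the control of the same number. Limma with the replicate as a block called RHOBTB2 (adjusted p = 0.0366), while the calls over all genes went from 1482 to 3112. In NCI-H460 it stood at 7.77 and 6.90 TPM in the controls and at 6.26 and 6.69 TPM with ASO3, below both controls and not called (-0.17, adjusted p = 0.292). Its ASO5 libraries overlapped the controls in A549 (12.9 to 17.2 TPM) and in NCI-H460 (7.65 and 7.73 TPM).

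CHMP7 encodes an ESCRT-III-related protein that acts in the resealing of the nuclear envelope. In the A549 controls it stood at 38.8, 41.1 and 39.8 TPM, with ASO3 at 55.3, 49.9 and 52.1 TPM and with ASO5 at 55.4, 43.9 and 48.4 TPM, all above every control. CHMP7 rose by 0.39 with ASO3 (SE 0.102, adjusted p = 0.0258), and leaving out any 1 of the 6 libraries gave 0.35 to 0.42 with an adjusted p of 0.0512 to 0.0858. The change of 0.29 with ASO5 was not called (adjusted p = 0.144). With candidate 240 ASO1 CHMP7 also lay above every control (47.9, 41.7 and 47.8 TPM, 0.19, adjusted p = 1), and against that group ASO3 was higher by 0.20 (adjusted p = 0.286). CHMP7 also rose with candidate 240 ASO3 (47.7, 51.4 and 54.9 TPM, 0.36, adjusted p = 0.0317), an oligonucleotide against another RNA, a call kept without its replicate 3 but lost when any other of the 6 libraries was left out (adjusted p = 0.0666 to 0.112). In NCI-H460 it stood at 23.8 and 23.3 TPM in the controls and at 21.4 and 23.6 TPM with ASO3 (-0.07, adjusted p = 0.744).

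R3HCC1 encodes a protein with an R3H domain, a fold that can bind nucleic acids. In NCI-H460 it stood at 23.2 and 22.2 TPM in the controls, at 43.4 and 33.8 TPM with ASO3 and at 29.2 and 24.8 TPM with ASO5. The ASO3 libraries lay above all 8 others of the line. R3HCC1 rose by 0.74 with ASO3 (SE 0.138, adjusted p = 0.00311), and kept its call in 11 of 11 alternative settings (0.56 to 0.96). The change of 0.24 with ASO5 was not called (adjusted p = 0.453). With candidate 240 ASO3 R3HCC1 stood at 31.1 and 28.6 TPM, also above both controls and not called (0.39, adjusted p = 0.133). In A549 it stood at 45.9, 33.0 and 35.05 TPM in the controls and at 49.8, 37.8 and 44.1 TPM with ASO3, which overlapped (0.21, adjusted p = 0.518).

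LOXL2 encodes a lysyl oxidase-like enzyme that cross-links collagen. It stood at 99.0, 83.5 and 82.3 TPM in the A549 controls and near 10 TPM in NCI-H460 (8.96 and 10.4 TPM). With candidate 42 ASO3 in A549 it stood at 93.4, 61.9 and 59.1 TPM, replicate 3 within the controls and the others below them. The difference of -0.33 was not called (adjusted p = 0.245), but it was -0.54 without ASO3 replicate 3 (adjusted p = 0.0316) and -0.45 in replicates 4 and 5 alone (adjusted p = 0.00831). Limma with the replicate as a block called it narrowly (adjusted p = 0.0482). With ASO5 LOXL2 stood at 101, 82.8 and 78.0 TPM (-0.02). It fell by 0.52 with candidate 240 ASO3 in A549 (68.4, 56.7 and 59.1 TPM, adjusted p = 0.0492), a call also lost without any library other than its replicate 3 (adjusted p = 0.0763 to 0.137). In NCI-H460 its groups overlapped with both candidate 42 ASOs (0.05 with ASO3, adjusted p = 0.811).

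Leaving out replicate 3 of all A549 groups, a setting chosen after the data were seen, raised the members called with ASO3 from 3 to 5, adding TNFRSF10B and LOXL2, while the calls among all genes went from 1482 to 3070. With ASO5 it left 1 (TNFRSF10A, 0.51, adjusted p = 0.00699).

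With the candidate 240 ASOs, limma called 2 of the 9 genes in A549 for ASO3 (CHMP7 and LOXL2), where 13.8% of all genes were called, and 1 of 8 in NCI-H460 (AC107959.3), where 5.66% were. In A549, limma with the replicate number as a block added R3HCC1 (0.27, adjusted p = 0.0477) to the calls for ASO3, with 2036 genes called going to 3696. For candidate 240 ASO1 limma called 0 members in either line, where 0% of all genes were called. At an unadjusted p under 0.05 it had 1 member in each line, beside 267 of 14740 genes in A549 and 493 of 13774 in NCI-H460. The authors' deposited tables had 0 members at a q-value under 0.05.

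Comparing the 2 candidate 42 ASOs with each other leaves the control libraries out. In A549 AC107959.3 was higher with ASO5 than with ASO3 by 1.89 (SE 0.375, adjusted p = 0.00535), and 1 of 9 members was called, where 10.7% of all genes were. TNFRSF10B was higher with ASO5 in every library (0.33, 95% interval 0.05 to 0.61, adjusted p = 0.136), TNFRSF10D was lower (-0.50, adjusted p = 0.0722) and TNFRSF10A was higher (0.28, adjusted p = 0.0910). In limma with the replicate number as a block the 3 genes were called (adjusted p = 0.0469 for TNFRSF10B, 0.0318 for TNFRSF10D and 0.0403 for TNFRSF10A), while the calls over all genes went from 1570 to 3152. In NCI-H460 4 of 8 were called, where 33.3% of all genes were: AC107959.3 (1.07, adjusted p = 0.0405), TNFRSF10A (0.47, adjusted p = 0.0107) and TNFRSF10B (0.62, SE 0.083, adjusted p = 0.00137) were higher with ASO5, and R3HCC1 was lower (-0.50, adjusted p = 0.0227). TNFRSF10B kept this call in 11 of 11 alternatives. AC107959.3 lost its call in limma with the replicate as a block (adjusted p = 0.0521). Without ASO5 replicate 2 the values were 0.42 for TNFRSF10A (adjusted p = 0.0823) and -0.39 for R3HCC1 (adjusted p = 0.152), and without ASO3 replicate 1 that of R3HCC1 was -0.32 (adjusted p = 0.115).

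Candidate 240 ASO1, which called no gene against the control, served as the other reference. In A549 1 of 9 members differed between it and candidate 42 ASO3, the lncRNA (-2.68, adjusted p = 0.000412), where 10.4% of all genes did. Limma with the replicate as a block also called TNFRSF10C (0.88, adjusted p = 0.0122), RHOBTB2 (-0.33, adjusted p = 0.0253) and R3HCC1 (0.44, adjusted p = 0.00499). Against candidate 42 ASO5, without the block, 1 member was called, TNFRSF10A (0.52, adjusted p = 0.0114), where 3.77% of all genes were. That call was lost without ASO5 replicate 3 (adjusted p = 0.0514) or 4 (adjusted p = 0.0549). The replicate block kept it and added TNFRSF10C (0.74, adjusted p = 0.0442), with 555 genes called going to 1585. In NCI-H460 candidate 42 ASO3 differed in 3 of 8 members, where 35.1% of all genes did: AC107959.3 (-2.18, adjusted p = 0.00213), TNFRSF10B (-0.62, adjusted p = 0.00102) and R3HCC1 (0.69, adjusted p = 0.00578), and all 3 calls were kept in 11 of 11 alternatives. This reference itself held the lncRNA above both NCI-H460 controls, at 5.92 and 2.89 TPM. Against the control the change of AC107959.3 with ASO3 was -1.08, and 5 of 11 alternatives did not call it. Between candidate 240 ASO1 and candidate 42 ASO5 limma called 0 of 8 there, where 0.254% of all genes were called. At an unadjusted p under 0.05 it had 2 of the 8, beside 1551 of all 13774 genes.

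The responses to candidate 42 ASO3 were compared between the lines in one model of all 25 libraries. Of the 9 genes, 3 differed, where 19.7% of all genes did. The change of AC107959.3 was lower in A549 than in NCI-H460 by 1.85 on the log2 scale (interaction -1.85, SE 0.572, adjusted p = 0.0321), that of TNFRSF10A was higher (0.57, SE 0.142, adjusted p = 0.0137), and that of TNFRSF10B was higher (0.52, SE 0.176, adjusted p = 0.0437). These 3 calls, in the order given, were lost in 10, 3 and 12 of 16 alternatives. On the log2 scale, the line with the larger change of the lncRNA had the smaller change of TNFRSF10B. Whether the 2 changes are linked was not tested. With ASO3 the lncRNA averaged 0.650 TPM in A549, from 7.61 TPM in the controls, and 0.529 TPM in NCI-H460, from 1.75 TPM. The NCI-H460 start lies near the pseudocount of 0.5 TPM, which limits how far the log2 value can fall. Median-of-ratios scaling gave 0.33 for TNFRSF10A (adjusted p = 0.0874) and 0.28 for TNFRSF10B (adjusted p = 0.185). TNFRSF10A also lost its call without NCI-H460 control replicate 2 (adjusted p = 0.0614) or ASO3 replicate 1 (adjusted p = 0.116). R3HCC1 (-0.53, adjusted p = 0.137) and CHMP7 (0.45, adjusted p = 0.0722) were not called. Limma with the replicate as a block called both (adjusted p = 0.0125 and 0.0256), while the calls over all genes went from 2909 to 5638. For ASO5 limma called no member, where 0.0339% of all genes differed. At an unadjusted p under 0.05 it had 1 member, beside 968 of all 14769 genes.

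The other genes within 1000000 bp on each side of the lncRNA were examined for a pattern with distance. The window held 46 other gene names, of which 33 passed the filter in A549 and 27 in NCI-H460. With ASO3 in A549, 4 of 33 were called, where 10.1% of all genes were: TNFRSF10D, CHMP7, the calcineurin subunit PPP3CC (0.54, adjusted p = 0.0103, 6.70 to 10.04 TPM) and the procollagen proteinase BMP1 (-0.58, adjusted p = 0.0130, 36.1 to 24.2 TPM). The last 2 lost their call without ASO3 replicate 5, BMP1 also without replicate 4, and none of the 4 was called in every alternative. With ASO5 TNFRSF10A alone was called, where 3.82% of all genes were. The median over the window was 0.074 with ASO3, against 0.019 over all genes. Set against candidate 240 ASO1 instead, ASO3 gave PPP3CC (0.43), BMP1 (-0.52), POLR3D (0.51, adjusted p = 0.0395) and AC107959.1 (0.85, adjusted p = 0.0214), a noncoding gene whose transcripts share sequence with RHOBTB2. These calls were lost in 7, 5, 7 and 6 of 14 alternatives. Between the candidate 42 ASOs SLC25A37 was higher with ASO5 (0.33, adjusted p = 0.0443), lost in 8 of 14.

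In NCI-H460, 12 of 27 were called with ASO3, 7 higher and 5 lower, beside the 46% of all genes. The metal transporter SLC39A14 had the largest fall, from 47.1 ± 1.70 to 23.2 ± 2.69 TPM (-1.01, adjusted p = 0.000247). The nucleotidase ENTPD4 fell by 0.82 and the mitochondrial iron importer SLC25A37 by 0.42. DMTN, which bundles actin, rose by 0.71, PDLIM2 by 0.73, REEP4 by 0.64, SORBS3 by 0.46, FAM160B2 by 0.43 and POLR3D, a subunit of RNA polymerase III, by 0.30. Of the 12, 7 were called in every alternative (DMTN, ENTPD4, PDLIM2, R3HCC1, REEP4, SLC39A14 and TNFRSF10B). DMTN and PDLIM2 rose with candidate 240 ASO3 in both lines, and ENTPD4 fell with it in NCI-H460. In NCI-H460 these calls were lost in 6, 4 and 5 of 11 alternatives, in A549 those of DMTN and PDLIM2 in 1 and 5 of 14. The called genes lay on both sides of the lncRNA, with changes in both directions. With ASO5 in NCI-H460 limma called 0 of the 27, where 0.508% of all genes were called. At an unadjusted p under 0.05 it had 6 of the 27, beside 2093 of all 13774 genes. Against candidate 240 ASO1, POLR3D was higher with ASO3 here as in A549 (0.50, adjusted p = 0.00452).

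**Figure D4:**
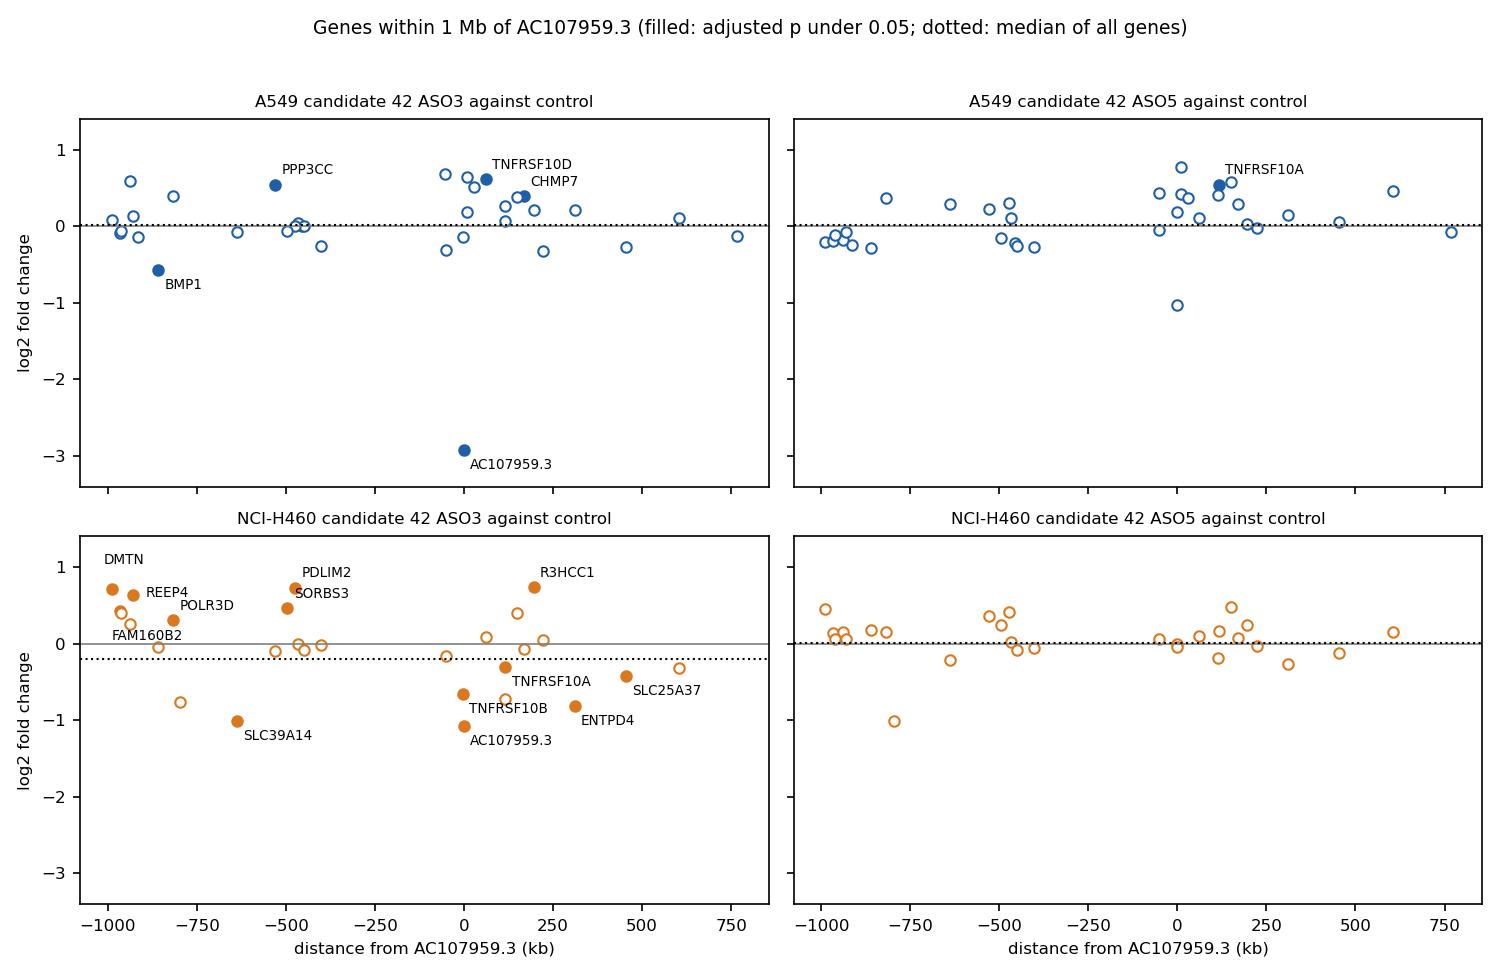
Log2 fold change against the control (vertical axis) of each tested gene within the window, by distance of its nearer end from AC107959.3 (horizontal axis, kb), for candidate 42 ASO3 and ASO5 in both lines; filled points are called and the dotted line is the median of all genes. With ASO3 in NCI-H460 the 12 called neighbours lie on both sides and range from -1.01 (SLC39A14) to 0.74 (R3HCC1).

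The rest of the TRAIL pathway was taken from a list of 24 genes of the ligand, other receptors, adaptors, caspases and their regulators, of which 21 passed the filter in each line. The ligand TNFSF10 averaged 0.733 TPM in the A549 controls and 0.0805 TPM in those of NCI-H460, and FASLG was listed at 0. The signalling core was present: FADD at 57.5 and 22.5 TPM, CASP8 at 26.0 and 32.4 TPM, and its inhibitor CFLAR at 45.5 and 32.0 TPM in A549 and NCI-H460.

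In A549 with ASO3, 2 of 21 passed, where 10.1% of all genes did. CASP9, the initiator caspase of the mitochondrial route, rose (0.61, adjusted p = 0.0174) and the TNF receptor TNFRSF1A fell (-0.44, adjusted p = 0.0349). CASP9 lost its call without control replicate 4 or ASO3 replicate 3, and TNFRSF1A without control replicate 3 or 4 or ASO3 replicate 4 or 5. Against candidate 240 ASO1, CASP9 was higher by 0.65 (adjusted p = 0.0116) and called in 14 of 14 alternatives. With ASO5 limma called 0 of 21, where 3.82% of all genes were called. At an unadjusted p under 0.05 it had 4 of the 21, beside 2418 of all 14740 genes. BIRC3, a ubiquitin ligase that restrains caspases, was higher with ASO5 than with ASO3 (0.94, adjusted p = 0.0187). It was the only 1 of 21 called between these ASOs, where 10.7% of all genes were, and lost its call in 6 of 14 alternatives. With candidate 240 ASO3 limma called 1, the executioner caspase CASP6, where 13.8% of all genes were called. CASP6 lost that call in 7 of 14 alternatives.

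In NCI-H460 with ASO3, 10 of 21 were called, 5 in each direction, beside the 46% of all genes, and the median was -0.209 against -0.201 over all genes. Neither sets the list apart. TNFRSF11B, a soluble decoy of TRAIL and RANKL, fell by 1.96, from 17.8 ± 1.16 to 4.44 ± 2.17 TPM, and was at 0.215 TPM in the A549 controls. The death receptor FAS fell by 0.89, the caspase inhibitor XIAP by 0.70 and CASP8 by 0.34. BAX and BAK1, which permeabilise the mitochondrial membrane, rose by 0.68 and 0.46, the adaptors TRADD and FADD by 0.58 and 0.37, and CASP9 by 0.65. Of the 10, 7 were called in every alternative, among them BAK1, BAX, CASP9, FAS, TNFRSF11B and XIAP. With ASO5 limma called 0 of 21, where 0.508% of all genes were called. At an unadjusted p under 0.05 it had 4 of the 21, beside 2093 of all 13774 genes. With candidate 240 ASO3, compared with the same controls, BAX (0.58), BID (0.43) and CASP9 (0.61) rose, calls lost in 6, 7 and 4 of 11 alternatives.

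**Figure D5:**
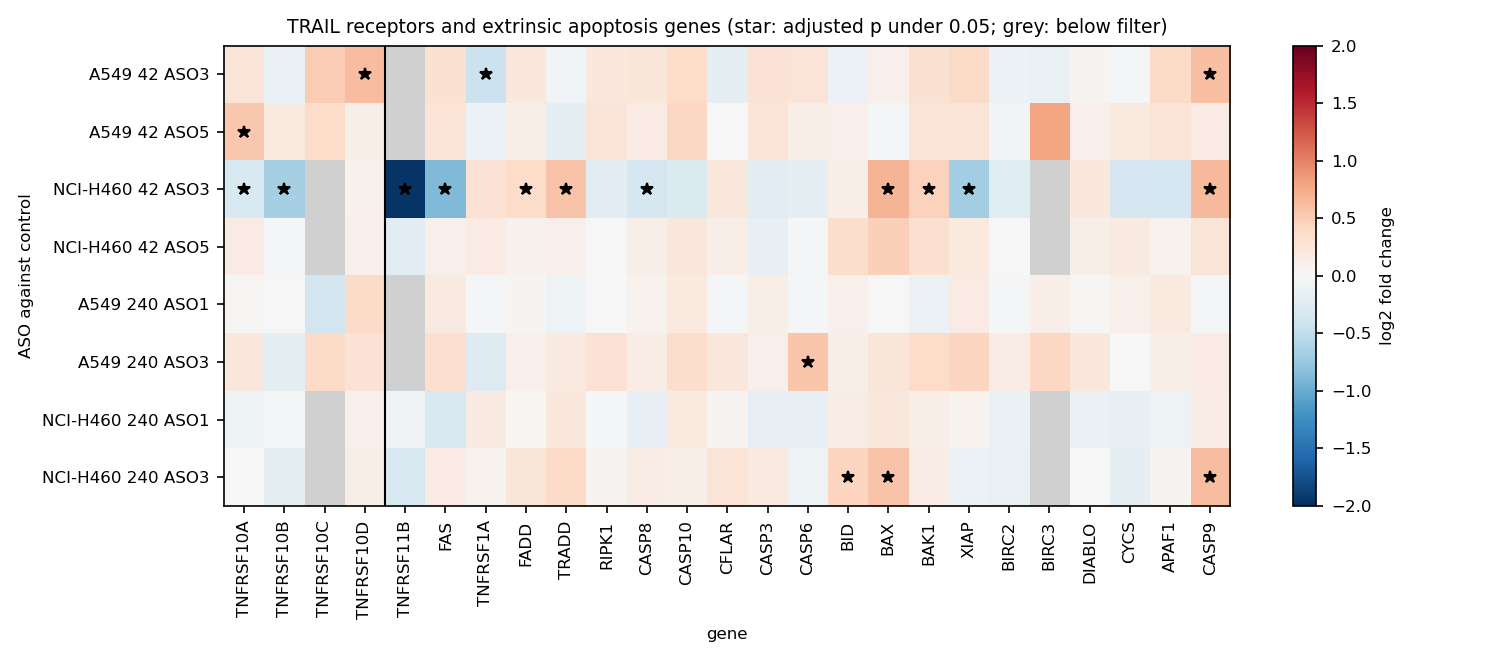
Log2 fold change against the control (colour, from -2 to 2) of the TRAIL receptors and tested genes of the pathway (columns) for each ASO and line (rows); stars mark calls and grey marks genes below the filter. The row of NCI-H460 with candidate 42 ASO3 holds most of the stars, with TNFRSF11B at -1.96.

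Relatives of the other neighbours were counted in the same way. Of 14 genes of the ESCRT-III machinery, to which CHMP7 belongs, 3 rose in A549 with candidate 42 ASO3. They were CHMP2B (0.48), CHMP4C (0.52) and CHMP5 (0.40), where 10.1% of all genes were called (3.43% higher). None of the 3 was called in every alternative. With candidate 240 ASO3, an oligonucleotide against another RNA, limma called 2 of the 14 higher and 3 lower in A549. There 13.8% of all genes were called. The 2 higher were again CHMP4C (0.80, called in 14 of 14 alternatives) and CHMP5 (0.37, lost in 3 of 14). In NCI-H460 with candidate 42 ASO3, CHMP1A (0.41) and CHMP4B (0.40) rose, and CHMP3 (-0.86), IST1 (-0.57) and VPS4B (-0.97) fell. RHOBTB1 (-1.21) and RHOBTB3 (-1.97, 44.4 to 11.2 TPM), the other genes of the family of RHOBTB2, fell in NCI-H460 with ASO3, and RBX1, a subunit of the CUL3 ligase, rose (0.44). LOXL1, a relative of LOXL2, rose by 0.63 there. R3HCC1L, the paralog of R3HCC1, was not called in either line (-0.40 in A549, -0.17 in NCI-H460). Of 8 transcription factors known to act on TRAIL receptor genes, limma called 5 in NCI-H460 with ASO3. Among them DDIT3 (0.50) rose and NFKB1 (-0.36), SP1 (-0.81) and YY1 (-0.37) fell. In A549 with ASO3 limma called 0 of the 8, with 3 at an unadjusted p under 0.05, beside 3510 of all 14740 genes. In NCI-H460 with ASO3 the calls of DDIT3, NFKB1 and YY1 were lost in 6, 5 and 6 of 11 alternatives. Those of RBX1 and LOXL1 were lost in 5 each, and those of CHMP1A and CHMP4B in 2 and 4. With 46% of all genes called in NCI-H460 with ASO3, these counts do not set the lists apart.

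Profiles across libraries were compared by Pearson's r over the 15 A549 libraries, as a description. The 5 genes most like AC107959.3 were DCBLD1 (0.942), LBH (0.933), NPHP4 (0.922), LINC00963 (0.922) and LYRM1 (0.919). In the 10 NCI-H460 libraries their values were 0.203, 0.717, 0.864, 0.738 and 0.730. The 5 least alike were FOXD2-AS1 (-0.912), FASTKD5 (-0.909), TEX10 (-0.906), HSPA14 (-0.904) and AC091729.2 (-0.903). RHOBTB2 was the nearest of the 8 neighbours in A549 (0.621) and of the 7 compared in NCI-H460 (0.853), and TNFRSF10B gave -0.032 in A549 and 0.530 in NCI-H460. How the neighbours rank among all genes by r was not examined. The genes most like TNFRSF10B in A549 were ATP2A2 (0.930), GANC (0.923), SLC39A14 (0.922), ITPR3 (0.92) and UBE3A (0.918), and in NCI-H460 these gave 0.961, 0.823, 0.977, 0.953 and 0.988. R3HCC1 ran opposite to TNFRSF10B (-0.637 and -0.883). Libraries of a group share their ASO, so the points are not independent.

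The authors' deposited tables give their own fold changes and q-values for the same comparisons. In the authors' deposited table for A549 with candidate 42 ASO3, AC107959.3 was at -3.54 with a q-value of 0.0678, and CHMP7 (0.40, q = 0.0385) was the only 1 of the 9 under 0.05. In that for ASO5 it was TNFRSF10A (0.56, q = 0.0188). In the authors' deposited table for NCI-H460 with ASO3, 5 were under 0.05: TNFRSF10A (-0.24, q = 0.0408), TNFRSF10B (-0.60, q = 0.0220), R3HCC1 (0.83, q = 0.0126), LOXL2 (0.13, q = 0.0484) and CHMP7, whose deposited log2 fold change was 0.004 (q = 0.0432). The sources used here do not state whether a q-value tests the total of a gene or its transcripts together, so these q-values need not refer to the fold changes beside them. AC107959.3 was at -1.65 there (q = 0.164). The share of all genes of those authors' deposited tables under 0.05 was 11.3% and 5.56% in A549 with ASO3 and ASO5, and 49.3% and 0% in NCI-H460.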

How the data were processed

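RNA was extracted with a Quick-RNA kit and libraries were made with a NEBNext Ultra kit, per the labels' protocols. Reads were quantified with kallisto and compared with sleuth 0.30 against hg38, per the submitters' processing notes, with the annotation release and strand setting not stated. The authors deposited 1 table of rescaled TPM per gene and library, handled here as a signal because its columns do not sum to 1000000, and 8 tables with log2 fold changes and q-values (adjusted p-values), per the file headers. Read counts and depth are not known from these files, so no counting interval is given. Scaled group signals in the authors' tables were not used.

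The test was limma 3.58.1 (trend) in R 4.3.3 on log2(TPM + 0.5), for genes averaging 1 TPM or more, with all 5 groups of a line in one fit (10 residual degrees of freedom in A549, 5 in NCI-H460). A gene was called at a Benjamini-Hochberg adjusted p under 0.05 over all genes. The fit was tested on simulated data. Tables and figures used Python 3.11.15 with numpy 2.4.6, pandas 2.3.3 and matplotlib 3.10.9. No libraries were identical. Named genes are all 9 members, genes of the window and lists called in a candidate 42 comparison, a few others of these, and the 5 most and least alike by r. A few listed genes are counted but not reported here by name. The members and lists were chosen with earlier results of these data known. Other settings tried were the pseudocount (0.1, 1), no filter, 2 other scalings, the compared groups alone, a replicate block and leaving out each library. Restricting A549 to replicates 4 and 5 was added after seeing the data.

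Replicate numbers come from the labels. The correlation of deviations exceeded 0.1 for every pair in A549 for candidate 240 ASO1 (0.170 to 0.410) and ASO3 (0.283 to 0.564) against control, ASO5 against ASO3 (0.128 to 0.411) and candidate 42 ASO5 against candidate 240 ASO1 (0.102 to 0.261). It did not for candidate 42 ASO3 (0.090 to 0.391) or ASO5 (0.021 to 0.321) against control. Nor did it for candidate 42 ASO3 against candidate 240 ASO1 (0.055 to 0.265). Some A549 libraries of unequal number were as alike. Candidate 42 ASO5 replicate 5 gave 0.247 with ASO3 replicate 4, against 0.128 with ASO3 replicate 5. Candidate 240 ASO3 replicate 4 gave 0.263 with control replicate 5, against 0.283 with control replicate 4. These values do not show that equal numbers pair replicates 4 and 5. In NCI-H460, with 2 libraries a group, both pairs give the same value by construction, so each comparison has 1 value, from -0.016 to 0.195. It was above 0.1 for ASO5 against ASO3 (0.195) and for candidate 42 ASO5 against candidate 240 ASO1 (0.104).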

Additional observations from a re-analysis of the deposited data

Results flagged for a closer look

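In 3 genes the response to candidate 42 ASO3 differed between the lines by the test of the difference itself (limma, all 25 libraries, A549 response minus NCI-H460 response). The interaction was -1.852 for AC107959.3 (adjusted p = 0.0321), which fell in all 3 A549 libraries and both NCI-H460 libraries relative to every control. It was 0.567 for TNFRSF10A (adjusted p = 0.0137), which lay above the controls in 3 of 3 A549 libraries and below them in 2 of 2 NCI-H460 libraries. It was 0.523 for TNFRSF10B (adjusted p = 0.0437), which lay below the controls in 2 of 2 NCI-H460 libraries and below the lowest control in 1 of 3 A549 libraries. The median interaction over all genes was 0.152.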

How the results depend on the processing

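The A549 fall of AC107959.3 with candidate 42 ASO3 and the NCI-H460 changes of TNFRSF10B and R3HCC1 kept their direction and call in all 14 and 11 alternatives run. For AC107959.3 in NCI-H460 with ASO3, no filter and the compared groups alone gave -1.08 without a call, and leaving out 1 library gave -1.46 to -0.69. With ASO5 there a pseudocount of 0.1 gave 0.003 and leaving out 1 library -0.391 to 0.376. TNFRSF10B in A549 with ASO3 was -0.25 and called in replicates 4 and 5 only. Uncalled NCI-H460 values with ASO3 changed sign for CHMP7 (0.157 with median-of-ratios, -0.136 to 0.006 leaving out 1 library), RHOBTB2 (0.045 with median-of-ratios), LOXL2 (-0.095 at a total of 1000000, -0.076 to 0.181 leaving out 1) and TNFRSF10D (-0.026 at that total, -0.210 to 0.396). With ASO5 leaving out 1 library gave -0.129 to 0.065 for LOXL2, -0.059 to 0.176 for R3HCC1, -0.195 to 0.041 for RHOBTB2 and -0.132 to 0.273 for TNFRSF10D in A549, and -0.245 to 0.191 for LOXL2 and -0.015 to 0.146 for RHOBTB2 in NCI-H460.

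The replicate block raised the members called in A549 with ASO3 from 3 to 5, adding RHOBTB2 (adjusted p = 0.0366) and LOXL2 (adjusted p = 0.0482), and the genes called from 1482 to 3112. In NCI-H460 with ASO3 the block left 3 members, without TNFRSF10A (adjusted p = 0.0531), and AC107959.3 between ASO5 and ASO3 lost its call (adjusted p = 0.0521).

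Members called in A549 with ASO3 were 1 at a total of 1000000 and with the compared groups alone, and 5 in replicates 4 and 5 only. With ASO5 they were 0 under the first 2 of these. In NCI-H460 with ASO3 they were 2 with no filter and with the compared groups alone. Genes called ranged from 762 to 3112 (A549, ASO3), 119 to 1742 (A549, ASO5), 665 to 3696 (A549, candidate 240 ASO3), 4088 to 6415 (NCI-H460, ASO3) and 42 to 88 (NCI-H460, ASO5). The cause was not tested. Depth is unknown, and low genes such as TNFRSF10C and the lncRNA rest on few TPM.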
